A study of Caenorhabditis elegans with 2 samples.

Results

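The regions described are the JUN-1 ChIP-seq regions of the nematode Caenorhabditis elegans that lie on chromosome X and outside promoters. A region was taken when its summit, the base of highest signal, fell on chromosome X and in no window running from 1000 bp upstream to 200 bp downstream of the start of a protein-coding transcript. Summits within 250 bp of a tRNA, snRNA, snoRNA or miRNA gene were dropped, which removed 124 further regions. The rule found 1702 of the 13085 regions of the deposited joint list, and 1702 of the 2706 on chromosome X. The choice used position only and no measured signal. A second deposited list, derived from both replicates, holds the 899 joint regions that passed the authors' reproducibility threshold. Regions in it are named called regions here. Of the X regions outside promoters, 85 were called, or 4.99% (95% exact binomial interval 4.01 to 6.14), against 6.87% of the whole joint list.

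Both libraries came from whole L4 larvae, the last larval stage, of strain OP234, labelled as mixed sex. The strain carries unc-119(ed3) on chromosome III, a mutation used as a background for transgenes, and the integrated transgene wgIs234, which supplies JUN-1 with an eGFP tag. The chromatin was immunoprecipitated as eGFP-jun-1 in 2 biological replicates, and there was 1 group, so no treatment or genotype was compared. A whole larva mixes all tissues, and the control experiment named in the labels was not used here. The labels do not say whether the replicates were separate cultures, so the spread between them may be technical. The lists hold peaks and no read counts, so the sequencing depth is unknown.

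JUN-1 is a nematode relative of JUN, a leucine zipper protein that in mammals pairs with FOS proteins to form the factor AP-1. Its site was searched for here as TGANTCA, with any base at N. Chromosome X of this worm is also the target of a second kind of protein assembly. In XX animals the dosage compensation complex, a condensin-like complex joined by the SDC proteins, lowers transcription of both X chromosomes. It is loaded at a limited set of recruitment elements, many of which hold copies of the MEX motif, and then spreads along the chromosome. The gene xol-1, on X, is the switch that sets this pathway by sex.

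The sequences carrying the main pattern are shown first. They are the best matches to GCGCAGGG, the core of the MEX motif, near the summits of the 14 strongest X regions outside promoters, in order of joint signal. Each is named by the nearest protein-coding start, is read 5′ to 3′ on the strand given from the RefSeq sequence of WBcel235, and has the match to the core in capitals with 18 bases on each side.
W02H3.3 site (chrX:11094208-11094251, minus strand): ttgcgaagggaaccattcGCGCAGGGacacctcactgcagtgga
cest-16 site (chrX:6296558-6296601, plus strand): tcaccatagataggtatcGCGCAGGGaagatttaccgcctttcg
K02D3.1 site (chrX:13700886-13700929, minus strand): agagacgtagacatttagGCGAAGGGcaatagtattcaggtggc
F19H6.5 site (chrX:12363201-12363244, plus strand): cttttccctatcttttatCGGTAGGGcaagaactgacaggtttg
ZK899.6 site (chrX:9465865-9465908, plus strand): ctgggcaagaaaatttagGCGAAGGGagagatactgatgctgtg
F55G7.5 site (chrX:11937523-11937566, plus strand): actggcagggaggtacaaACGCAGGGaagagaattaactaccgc
C41A3.2 site (chrX:5429572-5429615, plus strand): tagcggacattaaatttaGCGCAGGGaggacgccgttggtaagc
T27A8.7 site (chrX:16056515-16056558, minus strand): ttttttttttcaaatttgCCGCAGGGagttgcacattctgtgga
F20B6.9 site (chrX:4209248-4209291, minus strand): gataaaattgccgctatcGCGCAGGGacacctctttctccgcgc
gtr-1 site (chrX:806656-806699, plus strand): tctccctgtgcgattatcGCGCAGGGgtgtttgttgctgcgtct
Y41G9A.17 site (chrX:2997105-2997148, minus strand): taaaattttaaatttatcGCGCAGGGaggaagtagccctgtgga
xol-1 site (chrX:8036417-8036460, plus strand): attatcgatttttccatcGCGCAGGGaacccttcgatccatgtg
F22H10.2 site (chrX:16682154-16682197, minus strand): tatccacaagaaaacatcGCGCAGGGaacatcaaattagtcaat
F43E12.1 site (chrX:7181745-7181788, plus strand): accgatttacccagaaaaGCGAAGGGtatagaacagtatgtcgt

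The core was exact at 8 of these sites within 100 bp of the summit and within 1 mismatch at 13 of 14. Positions are counted from 1 at the first base of the core. The K02D3.1, ZK899.6 and F43E12.1 sites carried the same substitution, C4A. The F55G7.5 site carried G1A and the T27A8.7 site G1C. The F19H6.5 site was the exception, with 3 mismatches at its best match, G1C, C2G and C4T. An exact copy lay 152 bp from its summit, so 9 of 14 sites had one within 200 bp. The strongest site shows how the copies were packed, with each match to the core or to its C4A form in capitals, here on the plus strand and so read as CCCTGCGC or CCCTTCGC.
W02H3.3 site (chrX:11094106-11094306, plus strand): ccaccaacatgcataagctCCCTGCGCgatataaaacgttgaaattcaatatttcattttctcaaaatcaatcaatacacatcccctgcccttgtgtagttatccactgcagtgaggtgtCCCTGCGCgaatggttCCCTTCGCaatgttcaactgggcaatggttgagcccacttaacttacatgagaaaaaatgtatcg

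Exact copies were few on the chromosome as a whole. The core occurred 81 times on X, or 4.57 copies per Mb, and 233 times on the 5 autosomes together, or 2.82 copies per Mb. Of the 81 copies on X, 13 lay within 200 bp of one of the 14 strongest summits. Within the same distance, 19 had a called X summit outside promoters and 28 any X summit outside promoters. With X regions in promoter windows or near small RNA genes counted too, 38 had a summit within 200 bp. The remaining copies had no X summit at that distance, so the letters alone did not mark where a region lay. Among the 13 called sites with an exact copy within 100 bp, the copy was followed by A at 10 and preceded by TC at 7. In the sequences listed above for the 14 strongest, every exact copy but that of the C41A3.2 site was preceded by TC. The strand and the neighbouring bases were read after the sites had been ranked, and these counts are descriptions.

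Joint signal separated these sites from the rest. It is the peak caller's value for each region, taken from the joint list of both replicates, on a scale that the labels do not explain. The 14 strongest X regions outside promoters had joint signals of 265 to 564, with a median of 394. The next 2 were 191 at the F56C3.1 site and 173 at the T24D8.6 site, and the median over all 1702 was 21.1. The set of 14 was drawn at the gap between 265 and 191 after the values had been seen. A joint signal of 200 or more, a cut inside that gap, was reached by 38 of the 13085 joint regions. These were 14 of the 1702 X regions outside promoters and 5 of the 847 in X promoter windows. On autosomes they were 3 of 6019 regions outside promoters and 13 of 3996 in promoter windows, among others. At 100 or more the counts of these 4 classes were, in the same order, 23, 18, 34 and 76, so the lead over X promoter windows was particular to the higher cut.

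**Figure D1:**
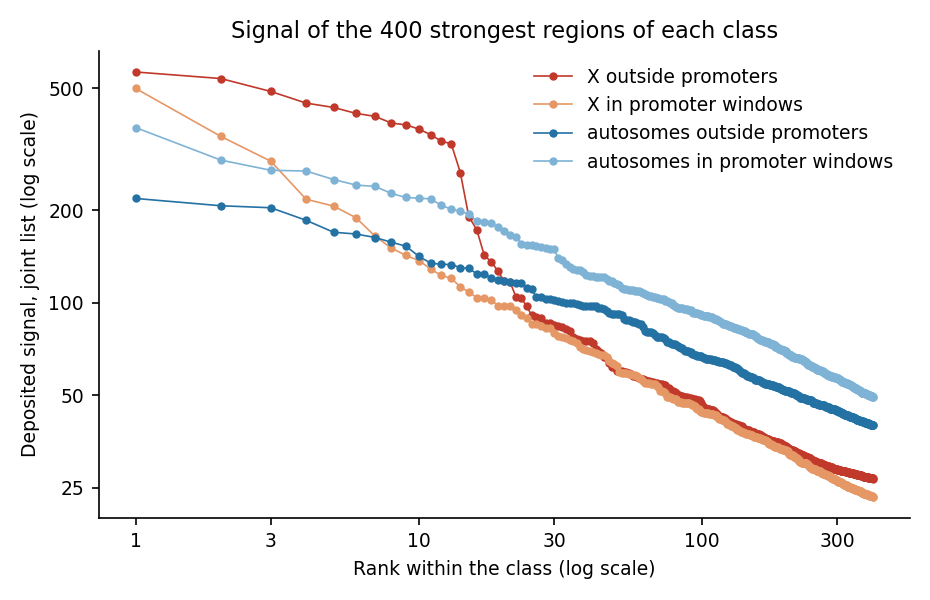
Joint signal (log scale) against rank within the class (log scale) for the 400 strongest regions of each of 4 classes of the joint list. The line for X outside promoters drops from 265 at rank 14 to 191 at rank 15, and from about rank 20 it runs close to that of X promoter windows.

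The called share lay between those of the nearest classes. Against 4.99% of the X regions outside promoters, X regions in promoter windows were called at 8.74% (74 of 847), and autosomal regions outside promoters at 3.64% (219 of 6019). The X regions outside promoters stood 1.36 percentage points above those on autosomes (95% Newcombe interval 0.292 to 2.58) and below X promoter windows, with a difference of -3.74 points (interval -6.04 to -1.68). Without the 14 strongest, the share was 4.21%, and the difference from autosomes was 0.568 points with an interval of -0.427 to 1.72, which includes 0. All intervals cover counting error over regions only and not the spread between animals. The weakest called region, at the vem-1 site, had a joint signal of 49.7, and the strongest region that was not called had 49.4.

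The strongest sites had high signals in each of the 2 replicates. The W02H3.3 site had signals of 294 in replicate 1 and 275 in replicate 2. The cest-16 site had 304 and 236, and the K02D3.1 site 248 and 234. The weakest of the 14, the F43E12.1 site, had 117 and 151. Both libraries placed all 14 far above the median of matched X regions outside promoters. That median was 13.0 in replicate 1 and 12.9 in replicate 2. The 14 were picked on a joint signal derived from these same libraries, so high values in both follow in part from that choice. Among the 14, the ratio of replicate 1 to replicate 2 ran from 0.763 at the C41A3.2 site to 1.33 at the T27A8.7 site, with replicate 1 higher at 9. The summits of the 14 were also sharply placed, with a median of 13.0 bp for the larger of the 2 offsets between the joint and a replicate summit.

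Ranking each replicate's own list by the same rule gave nearly the same set. In replicate 2, all 14 of the strongest X regions outside promoters were the 14 named sites, and signal dropped from 151 at rank 14 to 97.8 at rank 15. In replicate 1, 13 of the strongest 14 were. The other lay by fbxb-58, where replicate 1 had a signal of 199 and a summit 1009 bp from the start, just outside the promoter window. Signal in replicate 1 dropped from 165 at rank 14 to 117 at rank 15, which was the F43E12.1 site, close to the 110 of the T24D8.6 site. In that library the drop therefore came above F43E12.1, and the set of 14 was not set apart as a whole. The joint summit of the same region, with a signal of 348, was 998 bp from that start and so fell inside the window by the rule.

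Lower down, the replicates shared less. A summit within 100 bp was present in both replicate lists at 82 of the 85 called regions (96.5%, interval 90.0 to 99.3), at 548 of the 1617 not called (33.9%), and at 630 of all 1702 (37.0%). Neither list had a summit within 100 bp at 139. Over the 82 called regions with a summit in both, Spearman's rho between the replicate signals was 0.651, and over the 548 not called it was 0.229. Called regions came from a list derived from these same 2 replicates. Among X regions outside promoters, every called one also had a higher joint signal than any not called. The higher shared percent and rho of called regions follow in part from that choice. Regions are not independent replicates and the signals of a region share its sequence and mappability, so these values are descriptions. Against the 37.0% (interval 34.7 to 39.4) of X regions outside promoters, both lists had a summit at 43.7% of X promoter regions (interval 40.3 to 47.1), 35.1% of autosomal regions outside promoters (33.9 to 36.4) and 46.1% of autosomal promoter regions (44.6 to 47.7).

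**Figure D2:**
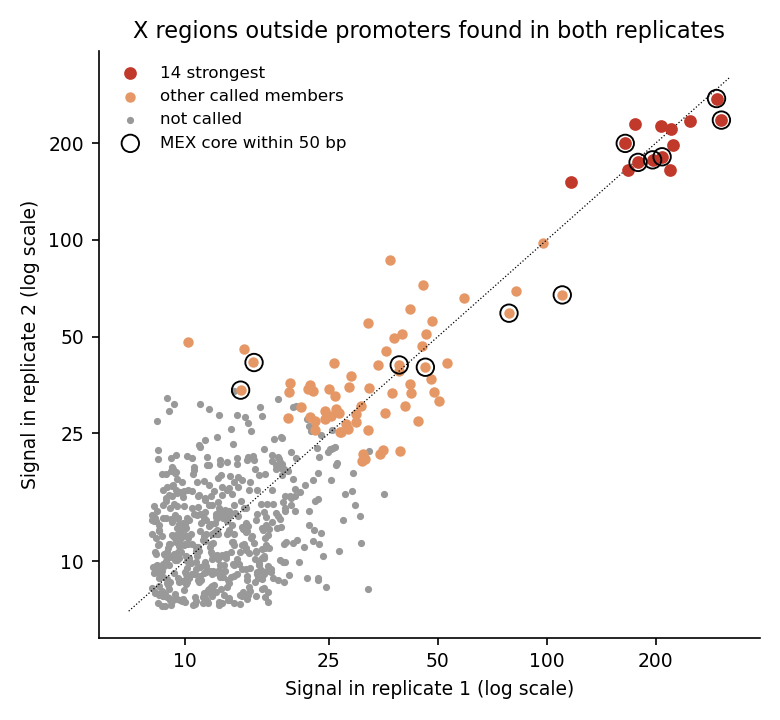
Signal in replicate 2 against signal in replicate 1 (both log scales) for the 630 X regions outside promoters with a summit in both lists; the dotted line marks equal values and black rings mark an exact MEX core within 50 bp. The 14 strongest sit at 117 to 304 in replicate 1 and 151 to 275 in replicate 2, and 6 of them are ringed.

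The strongest sites were spread along the whole chromosome. Neighbouring sites among the 14 lay 425651 to 2355708 bp apart, with a median of 1212184 bp. The widest intervals held the X promoter regions of comparable signal. The region upstream of nspc-17, with a joint signal of 499, lay between the K02D3.1 and T27A8.7 sites, which were 2355708 bp apart. The regions of ins-39 (289) and fbxb-58 (348) lay between the gtr-1 and Y41G9A.17 sites, 2190418 bp apart. With these 3 included, the 17 X regions at or above a joint signal of 265 were spaced by a median of 876122 bp and by at most 1628354 bp.

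Around the 14 sites there were few other X regions outside promoters. Within 5000 bp, 9 of the 14 had none, against 24 of the 85 called regions (28.2%) and 465 of all 1702 (27.3%). Both of these larger sets include the 14. Regions in promoter windows or near small RNA genes were not counted. The other 5 had 1 to 6 nearby, the most at the F20B6.9 site, where 1 was called, at a joint signal of 70.7. The 854633 bp between the F43E12.1 and xol-1 sites held 92 weaker regions, none of them called. The 2190418 bp between gtr-1 and Y41G9A.17 held 166, of which 16 were called.

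The full set was dense. Of the chromosome's 17718942 bp, 13689818 bp, or 77.3%, were open to the rule, and they held 124 regions and 6.21 called regions per Mb. The median distance between neighbouring summits was 4442 bp over all X regions outside promoters and 98972 bp over the called ones, against 10864 bp for X promoter windows. Distances of less than 1 kb made up 302 of 1701 (17.8%), and neighbouring regions of the joint list can overlap. Called regions within 10 kb of each other formed 9 groups holding 20 of the 85. The largest held 4 over 7283 bp by mdl-1, which encodes a MAD-like basic helix-loop-helix factor. Its joint signals ran from 55.5 to 91.0.

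Along the chromosome, called regions were thinnest in the middle. With X divided into 10 equal segments, numbered from the left, segments 5 and 6 held 4 and 2 called regions, or 2.99 and 1.48 per Mb open to the rule, against 13 each in segments 8 and 10, or 9.58 and 8.98 per Mb. All X regions outside promoters did not follow this, at 129 and 132 per Mb in segments 5 and 6 and 71.3 per Mb in segment 1. The central stretch from 25% to 75% of the length held 34 of the 85 called regions (interval 29.5% to 51.2%) and 926 of all 1702 (54.4%, interval 52.0 to 56.8), against 48.9% of the open bases. The interval for called regions includes the share of open bases. Of the 14 strongest, 8 were central, and segment 9 was the only one of the 10 without any of them.

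**Figure D3:**
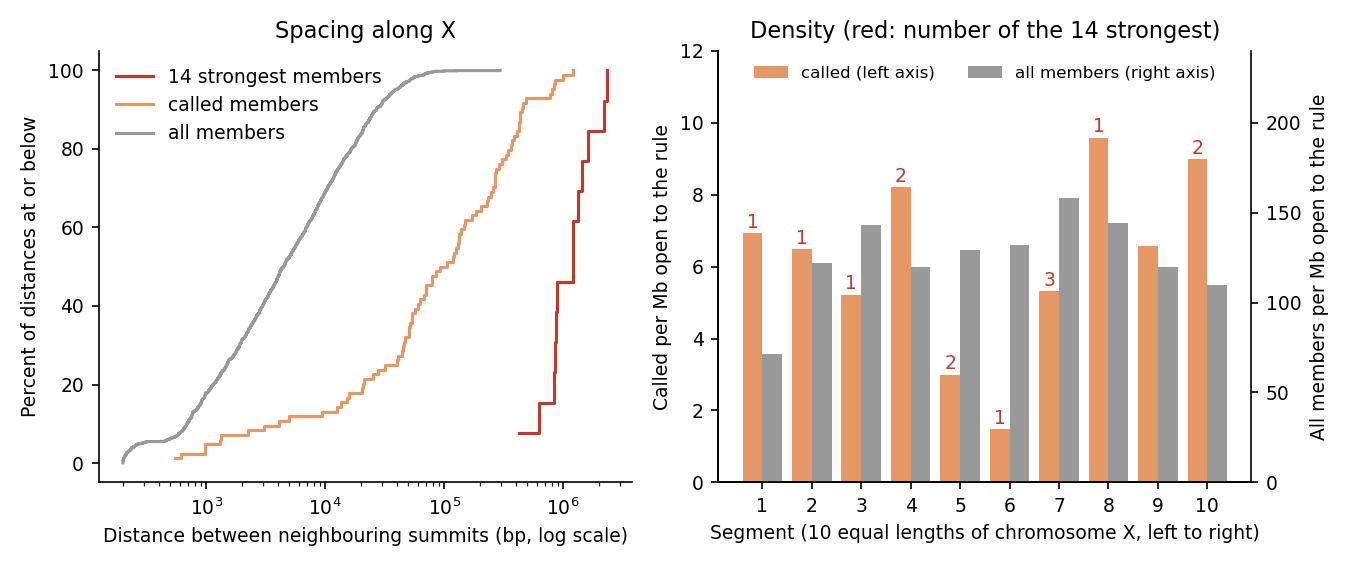
Left, percent of distances between neighbouring summits at or below a given length (bp, log scale) for the 14 strongest, the called and all X regions outside promoters, with medians of 1212184, 98972 and 4442 bp. Right, called regions (orange, left axis) and all X regions outside promoters (grey, right axis) per Mb open to the rule in each of 10 equal segments of X, with red numbers giving how many of the 14 strongest fall there; called regions are fewest in segment 6, at 1.48 per Mb.

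Location differed between called regions and the rest. Intergenic summits made up 11 of the 14 strongest, 53 of the 85 called (62.4%, interval 51.2 to 72.6) and 617 of all 1702 (36.3%), close to the 37.4% of open X bases that are intergenic. The called stood 27.5 points above those not called (95% Newcombe interval 16.6 to 37.3). Coding exons showed the opposite order, with 2 of the 85 called (2.35%, interval 0.286 to 8.24) and 407 of all 1702 (23.9%), against 21.7% of open bases. The called stood below those not called, with a difference of -22.7 points (interval -25.5 to -16.5). Set per class, 8.59% of the intergenic regions were called and 0.491% of those in coding exons. Intergenic was not the class most often called, as exons neither coding nor UTR reached 12.5% (7 of 56). Across all 1702, UTR exons held 6.64% (interval 5.50 to 7.93), against 4.15% of open bases, and introns of protein-coding genes 29.6% (interval 27.5 to 31.8), against 32.4%. Called autosomal regions outside promoters were 48.9% intergenic (107 of 219), so the called X regions stood 13.5 points above them (interval 0.997 to 25.1). Without regard to calls, X regions outside promoters were already more often intergenic, at 36.3% (interval 34.0 to 38.6) against 28.2% on autosomes (1699 of 6019, interval 27.1 to 29.4). The intergenic share of open bases was taken for X only. Whether these differences from autosomes follow the share of intergenic bases was therefore not tested.

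**Figure D4:**
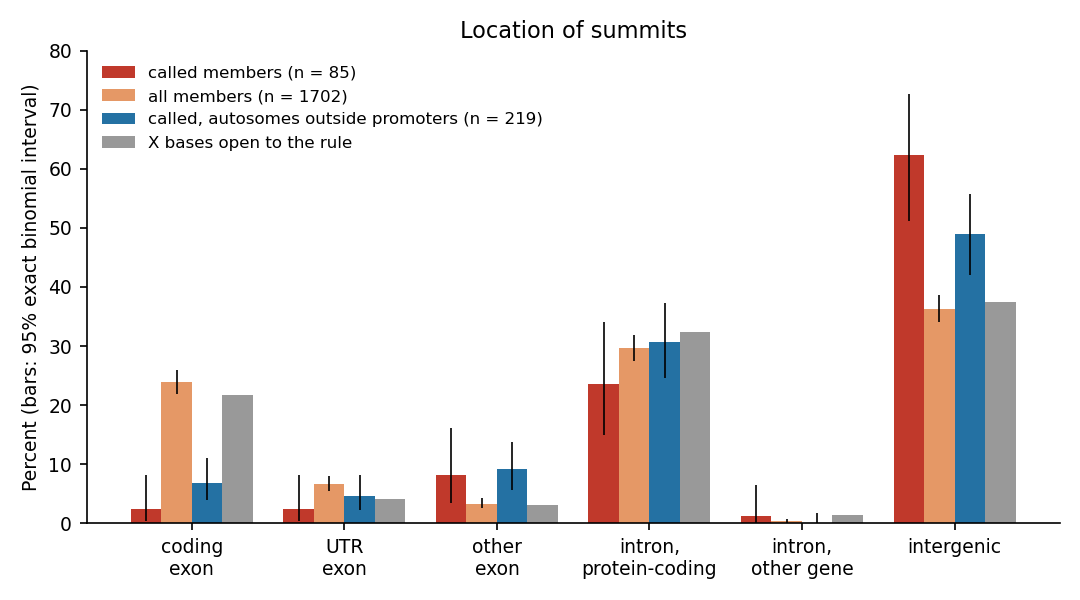
Percent of summits in each location class for the called (red) and all (orange) X regions outside promoters, for called autosomal regions outside promoters (blue), and the share of X bases open to the rule (grey); bars are 95% exact binomial intervals. Intergenic summits are 62.4% of called and 36.3% of all X regions outside promoters.

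Many of the strongest intergenic sites lay where neighbouring genes end. Of these 11, 6 were between the ends of convergent genes and none between divergent starts, and 5 lay between genes on the same strand. Over the 53 called intergenic regions, 12 were convergent (22.6%), and over all 617, 97 were (15.7%), against 11.5% of the open intergenic bases. The xol-1 site lay 4891 bp upstream of the xol-1 start between genes on the same strand, with signals of 179 in replicate 1 and 174 in replicate 2. The median distance from the 14 summits to the nearest start was 3006 bp, against 2026 bp over all 1702. The T27A8.7 site was the nearest, 1039 bp downstream of its start.

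Introns of protein-coding genes held 20 called regions and 504 in all. The called ones were in long introns, with a median length of 2369 bp against 895 bp over the 504. The second strongest site was in a 1299 bp intron of mom-1, which encodes a Porcupine-like acyltransferase needed for Wnt secretion. The Y41G9A.17 site, with signals of 165 in replicate 1 and 200 in replicate 2, was in a 2279 bp intron of its own gene. In a 9659 bp intron of F09A5.3 a pair of called regions stood 968 bp apart, at joint signals of 116 and 89.0. The mdl-1 site of 91.0 was in a 2459 bp intron of abts-4, which encodes an anion transporter.

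The genes whose introns held the most regions were lin-14 with 14, daf-12 with 11 and mbl-1 with 9. These counts were not scaled to intron length, and none of these intronic regions was called. The protein of lin-14 times larval development, that of daf-12 is a nuclear hormone receptor of the larval stage decisions, and that of mbl-1 is a muscleblind splicing factor. Exons that were neither coding nor UTR, in non-coding genes or non-coding transcripts, held 7 called of 56 (12.5%, against 4.99% over all 1702). In coding exons, the C41A3.2 site stood alone at 404, with 175 in replicate 1 and 229 in replicate 2, inside pks-1, a polyketide synthase gene. The next strongest in a coding exon, by hpo-34, had a joint signal of 57.6.

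Of the X-linked genes of sex determination and dosage compensation, 8 of the 9 listed were found on X, and 2 were the nearest start or the host of an X region outside promoters. One was xol-1, with 2 regions of which 1 was called, at 336. The other was sdc-2, which encodes the protein that brings the dosage compensation complex to X, with 3 regions, none called, and a strongest joint signal of 20.2. Over all 2727 protein-coding genes on X, 38.7% had such a region and 2.97% a called one, so 1 called of 8 is a single gene and says nothing about the list.

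Genes of neurons and of muscle or matrix seldom had a called region, as was true of X genes in general. Of 27 neuronal genes on X, 14 had an X region outside promoters and 1 a called one (3.70%, against 2.97% of all X genes). That was osm-11, which encodes a secreted Notch co-ligand, with a joint signal of 61.9 and signals of 35.7 in replicate 1 and 28.9 in replicate 2. The gene daf-12 was the nearest start or host of 16 regions, none called, the strongest at 39.6. Of 12 muscle and matrix genes on X, 7 had a region and none a called one, and the strongest was at the actin gene act-4, at 33.6. The shares with a region, 51.9% and 58.3%, stood beside 38.7% for all X genes. These shares and the called counts reflect few genes.

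The MEX core followed the order of signal. Within 50 bp of the summit it lay at 6 of the 14 strongest (42.9%, interval 17.7 to 71.1), at 5 of the other 71 called (7.04%, interval 2.33 to 15.7) and at 3 of the 1617 not called (0.186%, interval 0.0383 to 0.541). Of all windows of that width on X, 68 of 175435 held it (0.0388%). The called X regions outside promoters therefore carried it at 12.9% (11 of 85), against 0 of 219 called autosomal regions outside promoters, a difference of 12.9 points (interval 7.12 to 21.7). The count of 0 of 219 has an exact upper limit of 1.67%. Called X promoter regions had it at 3 of 74, and that difference of 8.89 points had an interval of -0.21 to 18, which includes 0. The promoter sites of nspc-17 and ins-39 held a core.

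The weaker called sites with the core included T24D8.6 at 173, one by col-185 (a cuticle collagen gene) at 136 and one by dpy-23 (a clathrin adaptor subunit gene) at 86.1. Allowing 1 mismatch within 100 bp, the match was found at 13 of the 14 strongest (92.9%), 16 of the other 71 called (22.5%) and 67 of 1617 not called (4.14%). Among called autosomal regions outside promoters it was found at 19 of 219 (8.68%). The looser match therefore also met summits of autosomes, where the exact core was at none of the 219 called.

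Words of 8 letters were counted in the 14 strongest sites after the sites had been ranked. Within 100 bp, GCGAAGGG, which is the core with C4A, was present at 8 of the 14 and at 8 of 1617 not called (0.495%). GTGGATAA was present at 7 of the 14, at 0 of the other 71 called and at 5 of the 1617 (0.309%). The exact core or its C4A form was present at 11 of the 14, and both at 5. At least 1 of the 3 words was present at 12 of 14, with F19H6.5 and F55G7.5 the sites that had none. Since the words were picked on these sites, their counts are no test.

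The motif known for JUN proteins lay at few regions of any group. The AP-1 word TGANTCA, where N is any base, lay within 50 bp at 0 of the 14 strongest (upper limit 23.2%). It lay at 2 of the 85 called (2.35%, interval 0.286 to 8.24), against 3.32% of windows of X. All 1702 had it at 77 (4.52%, interval 3.59 to 5.62). The interval for the called includes the share of windows, and that for all 1702 lies above that share. Called X promoter regions had it at 5 of 74 (6.76%) and called autosomal regions outside promoters at 11 of 219 (5.02%). The cyclic AMP response word TGACGTCA lay at 1 of the 85, the bcat-1 site of signal 80.9, and at 10 of the 1702. The palindrome CACGTG, the E-box bound by basic helix-loop-helix factors, was absent within 50 bp at the 14 strongest, and was present at 7 of the other 71 called (9.86%, interval 4.06 to 19.3), against 27 of 1617 not called (1.67%) and 1.32% of windows of X. Over all 85 called, the difference from those not called was 6.57 points (interval 2.31 to 14.4). GATA sites (TGATAA) and CCAAT were present at 9.41% and 21.2% of the called, against 12.6% and 20.3% of those not called. All searches were on both strands, and GCGAAGGG is also counted among matches to the core with 1 mismatch.

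The GA repeat GAGAGA was, like the core, more frequent at called regions than at those not called, by 13.0 points (interval 5.53 to 22.9). It lay within 50 bp at 1 of the 14 strongest (7.14%, interval 0.181 to 33.9) and 17 of the other 71 called (23.9%, interval 14.6 to 35.5), against 132 of 1617 not called (8.16%) and 4.91% of windows of X. The difference between the 14 and the other called was -16.8 points with an interval of -29.4 to 8.94, which includes 0. Called X regions outside promoters had it at 21.2% (18 of 85), against 43.4% (95 of 219) of called autosomal regions outside promoters, a difference of -22.2 points (interval -32.1 to -10.5). A pair of called X sites with the repeat, at joint signals of 84.4 and 80.9, is shown with the repeat in capitals on the plus strand, where it reads TCTCTC. They hold no core. The bcat-1 stretch, by a branched-chain amino acid transaminase gene, also holds the E-box and the cyclic AMP response word named above.
pigx-1 site (chrX:1093196-1093296, plus strand): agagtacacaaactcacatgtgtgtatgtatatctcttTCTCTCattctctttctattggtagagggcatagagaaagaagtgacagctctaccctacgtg
bcat-1 site (chrX:12872456-12872556, plus strand): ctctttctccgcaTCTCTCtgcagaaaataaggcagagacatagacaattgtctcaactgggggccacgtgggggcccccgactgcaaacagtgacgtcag

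**Figure D5:**
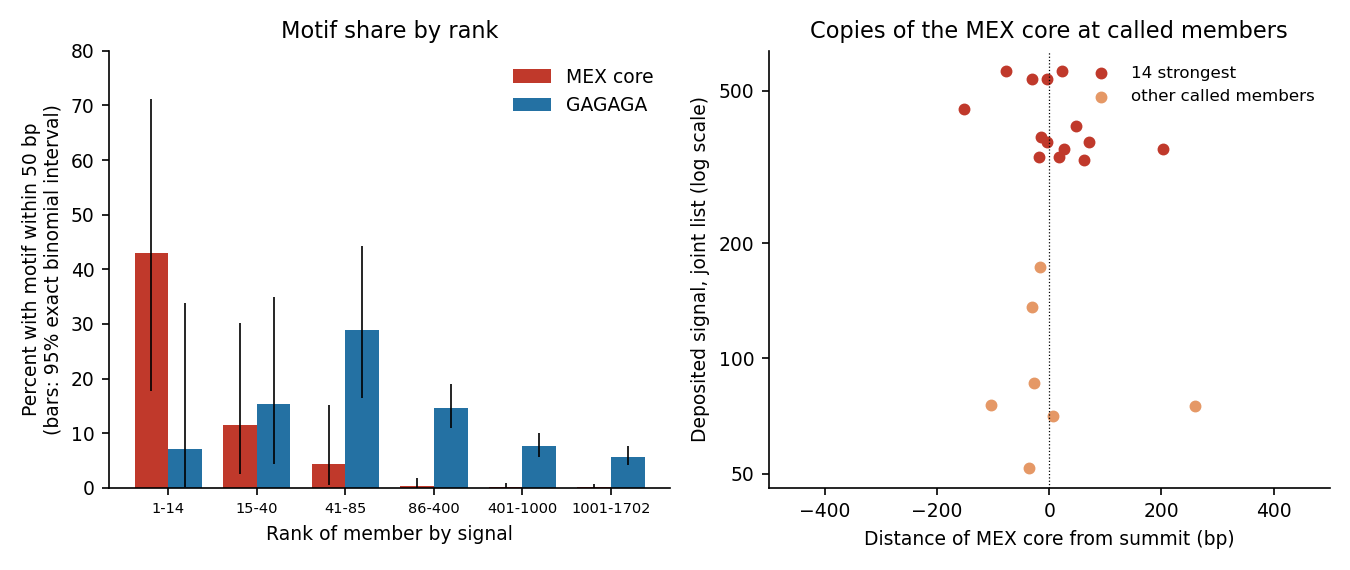
Left, percent of X regions outside promoters with the MEX core (red) or GAGAGA (blue) within 50 bp of the summit, by rank of joint signal, with 95% exact binomial intervals. Right, distance (bp) of each exact MEX core copy from the summit against joint signal (log scale) for called regions; the core is at 42.9% of ranks 1 to 14 and GAGAGA at 28.9% of ranks 41 to 85.

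Base composition and repeats moved with these groups. The median GC content within 50 bp of the summit was 43.1% at the 14 strongest, 45.5% over all called and 37.6% over those not called, against 34.7% over windows of X. The median share of bases masked as repeats was 0% at the 14 strongest, 1.98% over the called and 19.8% over those not called, against 25.7% over windows of X open to the rule. Of the 1702 regions, 1686 had a single width of 376 bp. The others were the 14 strongest, at 254 to 456 bp, and the next 2, at 163 bp by F56C3.1 and 175 bp by T24D8.6. The part of base composition, repeat content and width in the shares of motifs, locations and called regions was not tested. Whether the 14 sites are recruitment elements of dosage compensation, or are recovered with other tagged proteins, was not tested.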

How the data were processed

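ChIP-seq of eGFP-tagged JUN-1 was analysed from peak lists in ce11 coordinates (the same assembly as WBcel235), 1 joint list of both replicates, 1 list per replicate and the threshold list of 899 regions. The authors deposited a signal per peak and a -log10 q-value per peak, per the file headers; no source used here names the peak caller, the aligner or the scale of the signal. Signals were compared within a list only. Summits were placed against Ensembl release 115 genes and RefSeq WBcel235 bases with Python 3.11.15, numpy 2.4.6, pandas 2.3.3 and scipy 1.17.1. Location took the first of coding exon, UTR exon, other exon, intron and intergenic. Replicate summits matched within 100 bp, and motifs within 50 bp unless stated. Shares have 95% exact binomial (Clopper-Pearson) intervals and differences 95% Newcombe intervals, and no p-value was computed. The scripts were tested on simulated data. The named sites are the 15 strongest, the 5 strongest of 3 location classes and up to 4 genes of each of 3 lists; the others were named after their values were seen. The regions, gene lists and motifs were chosen with earlier results of these data known. Alternatives were other promoter windows, matching distances, motif windows and each replicate alone. With 1 group there was no comparison between groups, and depth is unknown.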

Additional observations from a re-analysis of the deposited data

How the results depend on the processing

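Over 51 alternatives to 10 results, 33 kept the value within its counting interval or the spread between replicates and 18 moved further. The percent intergenic, 36.3 as reported, was 39.5 and 33.4 with promoter windows from 500 and 2000 bp upstream, and 33.7 to 40.6 with each replicate left out. Median spacing, 4442 bp as reported, was 5785 bp with the 2000 bp window, 4750 to 5372 bp with each replicate left out, and 5054 bp with overlapping regions merged (added after seeing the data). The percent past the threshold, 4.99, fell to 2.59 when only the stronger regions of the threshold list were taken. A shorter threshold list can only lower this percent, in any class of regions. The whole joint list was not recounted with it, so a change relative to that list was not tested. The percent in both replicates, 37.0, was 23.2 and 52.5 with summits matched within 50 and 250 bp, and 23.1 with replicate lists of the joint list's length; rho, 0.467, was 0.551 and 0.392 at those distances. The MEX core share of the 25 strongest, 32%, was 64.0% with 1 mismatch allowed (added after seeing the data) and 32% with either replicate's own ranking. The GAGAGA share of called regions, 21.2%, was 9.41% and 36.5% within 25 and 100 bp, 4.0% at the 25 strongest, and 12.9% to 20% with each replicate left out, the lower value without replicate 2. The wider and narrower windows change these values by construction; for the replicates the cause was not tested. No paired analysis was possible because there is 1 group. Precision is limited by 2 replicates, by counts of 14 and 85 regions, and by unknown depth; no control library entered.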
